A study of Homo sapiens with 58 samples.

Results

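Glutathione transferases are the enzymes that join the tripeptide glutathione to reactive electrophiles, and 9 of their genes were examined here across human breast cancer cell lines: GSTP1, MGST1, MGST2, MGST3, GSTM3, GSTM4, GSTO1, GSTA4 and GSTK1. They were chosen by name, with their wide or on-and-off levels in these data already known. Of the 9 genes, 8 had a probe set annotated to them alone, among 19798 genes with such a probe set, and GSTO1 was not analysed here. Each gene was represented by its single-gene probe set with the highest mean, over all 58 lines. The mRNA of each line was profiled at baseline, without treatment, on 1 custom Affymetrix array, and the values are log2 intensities. There were no replicate arrays and no groups in the labels, so every line stands for itself. In these bulk cultures a low level can mean fewer cells with the transcript or less of it per cell, and the arrays cannot tell these apart.

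The glutathione transferases fall into separate families. Of the cytosolic classes, pi (GSTP1), mu (GSTM3, GSTM4) and alpha (GSTA4) conjugate soluble electrophiles such as drugs, carcinogens and lipid aldehydes. GSTO1 belongs to the cytosolic omega class. The membrane-bound MAPEG family (MGST1, MGST2, MGST3) works in the endoplasmic reticulum and related membranes, where several members also reduce lipid hydroperoxides or make leukotriene C4, and GSTK1 is the mitochondrial and peroxisomal kappa class enzyme. GSTP1 is the transferase best known in tumours, because the CpG-rich start of the gene is often methylated and silent in prostate and breast cancers. Methylation was not measured in these samples.

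Lines that are known to come from 1 patient or 1 parental culture were averaged, which reduced the 58 lines to 50 units. The 6 sets of common origin held 14 lines: AU565 with SKBR3, EFM192A with EFM192B and EFM192C, MDAMB435S with M4A4 and NM2C5, MB157 with MDAMB157, VP229 with VP267, and HMT3522S1 with HMT3522T42. MDAMB435S with its derivatives and MT3 have been reported elsewhere not to come from breast tumours, and the HMT3522, MCF12A and MCF102A lines descend from non-malignant breast epithelium. The epithelial marker EPCAM was above the array median in 53 of 58 lines and CDH1 in 46, while the pan-leukocyte marker PTPRC was above it in 0. The lines HS579MG, HS362T, HS605T and HS739T had CDH1 between 3.93 and 5.05 and VIM, a filament protein of mesenchymal cells, between 13.47 and 13.57 log2 units. The epithelial marker was thus missing in these 4, but not only in them. MDAMB436 (CDH1 4.01, VIM 13.12), FR2 (4.41, 13.46), HCC1395 (4.66, 13.34) and the averaged MDAMB435 set (4.75, 13.35) had the same pattern. The averaged AU565 and SKBR3 pair had low CDH1 (4.06) without high VIM (3.89). Array medians lay between 5.37 and 5.58. A probe set was called at background when it lay at or below 5.59, the level under which 95% of the 613 viral probe sets on the arrays lay (their median was 3.30).

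The sequences upstream of GSTP1 and MGST1, whose on or off states were the question here, are shown because the CpG content there is the feature for which GSTP1 is known. The letters are the 250 bases before an annotated transcription start, taken from RefSeq (GRCh38.p14, plus strand, 5′ to 3′), with each CpG in capitals. The GSTP1 stretch is chr11:67583562-67583811, and the MGST1 stretch, chr12:16347528-16347777, precedes the most CpG-rich of its 3 annotated starts.
GSTP1 upstream: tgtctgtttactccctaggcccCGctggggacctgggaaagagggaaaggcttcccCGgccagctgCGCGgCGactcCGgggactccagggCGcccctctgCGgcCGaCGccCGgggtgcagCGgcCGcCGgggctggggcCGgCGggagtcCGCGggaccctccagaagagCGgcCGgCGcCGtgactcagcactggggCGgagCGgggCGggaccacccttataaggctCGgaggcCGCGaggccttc
MGST1 upstream: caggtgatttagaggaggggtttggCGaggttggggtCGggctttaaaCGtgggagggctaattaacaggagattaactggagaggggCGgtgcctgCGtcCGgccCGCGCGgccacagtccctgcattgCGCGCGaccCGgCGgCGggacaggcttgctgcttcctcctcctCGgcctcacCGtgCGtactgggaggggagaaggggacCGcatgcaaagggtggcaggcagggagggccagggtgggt
The GSTP1 stretch held 28 CpG, a number reached by 15.9% of the 35116 upstream windows in the same table, whose median was 11. The 3 MGST1 windows held 3, 12 and 19 CpG, and 34.6% of windows held 19 or more. On either strand, GSTP1 had 1 match to the antioxidant response element core TGACNNNGC and 1 to the AP-1 motif TGANTCA, both starting 66 bases before the transcription start and overlapping. These motifs occurred in 10.9% and 6.57% of all windows. None of the MGST1 windows held either set of letters. Among the other members, GSTO1 had 2 matches to TGACNNNGC and GSTA4 had 1, so these letters are not particular to GSTP1. The other members with a window had 1 CpG (GSTM3), 11 (GSTA4), 14 (GSTO1), 15 (GSTK1), 16 (MGST3) and 18 (GSTM4). A match of letters is a description and says nothing about binding in these lines.

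**Figure D1:**
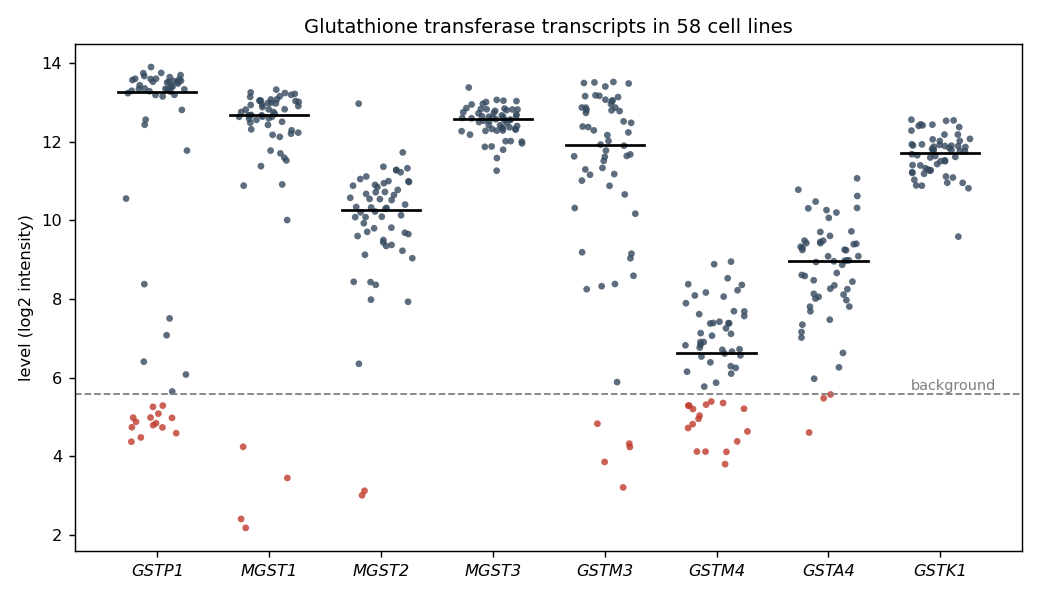
Level of 8 glutathione transferase transcripts (log2 intensity, vertical axis) in each of 58 cell lines (points, spread sideways for visibility; red at or below the background level, which is the dashed line). Black bars are the medians over 50 units; GSTP1 has 14 and MGST1 4 lines at background, MGST3 and GSTK1 have 0, and heights are not comparable between genes because each probe set has its own response.

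GSTP1 (chr11:67583812-67586653), the pi class enzyme, was high in most units and at background in a large minority, with a few units in between. Over the 50 units its lowest level was 4.48 in HCC1937, its median 13.25 and its highest 13.90 in CAL51. With an SD of 3.78 it was the ninth most variable of 14648 detected genes, whose median SD was 0.705. Of the 8 members, 6 had an SD of at least 1, against 34.2% of all detected genes. The members were chosen with their wide or on-and-off levels known, so this share and the rank of GSTP1 are only descriptions.

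GSTP1 was at background in 11 units. These were HCC1937 (4.48), EVSAT (4.59), the VP229 and VP267 pair (4.68), OCUBF (4.74), BT20 (4.74), T47D (4.79), MDAMB175VII (4.84), HCC1954 (4.99), MDAMB361 (5.09), OCUBM (5.26) and UACC893 (5.29). Just above the background level, and so outside this count, was the EFM192 set at 5.91, followed by MFM223 at 6.08 and KPL1 at 6.41. ZR751 (7.51), the AU565 and SKBR3 pair (7.72) and MDAMB453 (8.38) lay between the extremes. The next unit, CAMA1, was at 11.77, so the order of units had a gap of 3.40 with 17 units below it and 33 above it. Line by line the gap was not empty. SKBR3 was at 10.55, inside it, and AU565 was at background with 4.88, so their average of 7.72 is the level of neither line. Among units, the gap was the only 1 of 49 steps between neighbours that exceeded the SD within sets of common origin, 1.53, which rests mainly on the AU565 and SKBR3 pair. Without that pair the SD was 0.6 and 5 of the 49 steps exceeded it, a comparison added after seeing the data. The order of the other neighbours is not separated by more than this spread. A mixture model gave 2 clusters for GSTP1, of 20 and 30 units, and the lower one reached up to 12.56 in CAL148, so it is wider than the units without the transcript. Line by line, 14 of 58 lines were at background. The second GSTP1 probe set followed the first (Pearson r = 0.997 across 50 units) and was at background in 14 units.

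MGST1 (chr12:16347115-16593331), the microsomal enzyme that protects membranes from lipid peroxidation, was high almost everywhere and missing in a few lines. Its levels ran from 2.18 in DU4475 over a median of 12.67 to 13.26 in the VP229 and VP267 pair (SD 2.41), and 42 of 50 units lay within 1 log2 unit of the median. At background were DU4475 (2.18), MFM223 (3.45) and ZR751 (4.24). The MB157 and MDAMB157 pair averaged 7.42, which hides a wide difference between its lines: MDAMB157 had 2.41 and MB157 had 12.43. Above a further gap of 3.46 came CAL51 at 10.88 and BT549 at 10.91. Only 2 of 49 steps in the order, the ones on either side of that pair, exceeded the SD within sets of 2.58, which itself rests mainly on this pair, and without the pair the SD was 0.678 and 4 steps exceeded it. MGST1 formed 1 cluster by the rule used (Ashman D 1.56, below the 2 required), so its few low units stand apart in level but not as a second cluster. Counted by line, 4 of 58 were at background. DU4475 and the MB157 and MDAMB157 pair were also among the 3 units whose relative log expression was spread most widely, which is how array quality was judged (interquartile range 0.727 and 0.709, in a range over lines of 0.518 to 0.778). The part of array quality in their low MGST1 was not tested.

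**Figure D2:**
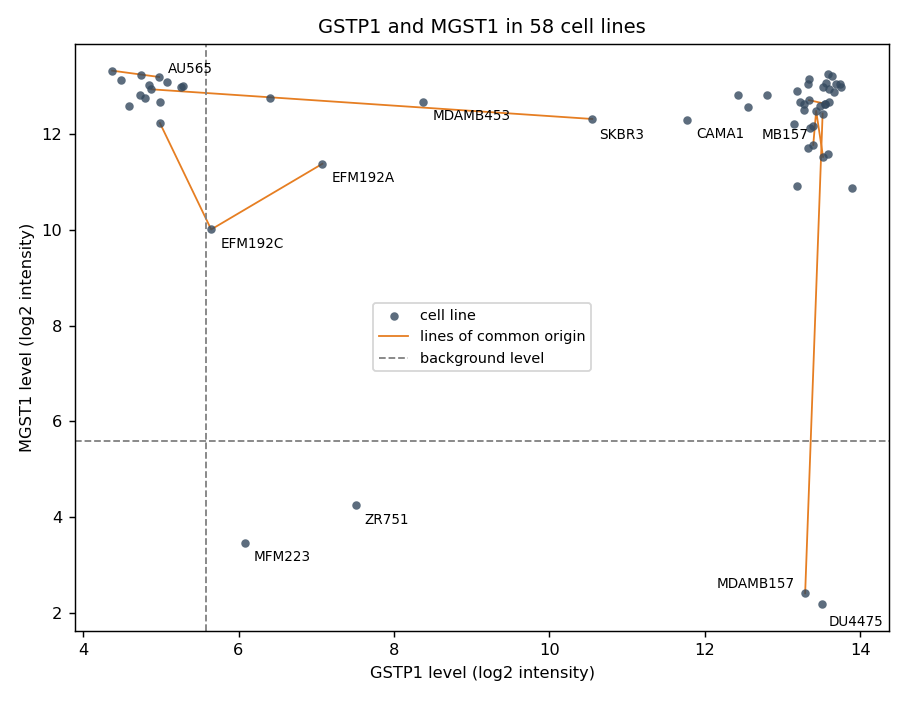
MGST1 level (vertical axis, log2 intensity) against GSTP1 level (horizontal axis, log2 intensity) in 58 cell lines (points); orange lines join lines of common origin and dashed lines mark the background level. The lower left corner is empty: no line has both genes at background, MFM223 (6.08 and 3.45) comes nearest, and AU565 with SKBR3 and MB157 with MDAMB157 are split by 1 gene each.

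GSTP1 and MGST1 were never both at background. Among 50 units, 11 lacked GSTP1, 3 lacked MGST1, 0 lacked both and 36 lacked neither. Among 58 lines, the counts were 14, 4, 0 and 40. With so few units lacking MGST1, an empty overlap is a description. With background set at 6.50, under which 99% of the viral probe sets lay, 1 unit, MFM223, lacked both, with GSTP1 at 6.08 and MGST1 at 3.45. ZR751 was the other unit with MGST1 at background and a low GSTP1 (7.51), while DU4475 had GSTP1 at 13.50. No unit had 3 or more of the 8 members at background. The number at background was 2 in 14 units, 1 in 9 and 0 in 27.

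The remaining microsomal members differed from each other in how far they varied. MGST2 (chr4:139665819-139754618), which can make leukotriene C4, was at background in 2 units, BT549 (3.01) and HCC1395 (3.13), and next in order were HS578T (6.35) and HS579MG (7.93). Its median was 10.26 and its highest level 12.97 in DU4475. The mixture model gave 2 clusters for MGST2, of 3 and 47 units, so low and high units were not particular to GSTP1 and MGST1. The lowest 4 units all had high VIM, 13.34 to 13.51. MGST3 (chr1:165631234-165656136), a related peroxidase and leukotriene C4 synthase, was never low: it ran from 11.26 in KPL1 over a median of 12.59 to 13.38 in DU4475, with an SD of 0.38. DU4475, which lacked MGST1, had the highest level of both MGST2 and MGST3.

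The mu class enzymes varied widely. GSTM3 (chr1:109733937-109741038) had a median of 11.91 and a maximum of 13.50 in CAMA1, and it was at background in MT3 (3.21), DU4475 (3.86), BT20 (4.24) and MCF102A (4.83). MDAMB453 (5.89) and the VP229 and VP267 pair (6.29) lay just above. For GSTM3 the mixture model also gave 2 clusters, of 14 and 36 units. Both other GSTM3 probe sets correlated with the first at r = 0.843 and 0.755 across the 50 units and were at background in 18 and 28 units, so the count of units lacking GSTM3 depends on the probe set. GSTM4 (chr1:109656099-109667727) was a dim probe set with a median of 6.64, a range of 4.09 (VP229 and VP267) to 8.95 (CAL51), and 16 units at background. Mu class genes are close copies of each other, and binding of GSTM1, GSTM2 or GSTM5 transcripts to these probe sets was not tested.

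GSTA4 (chr6:52977953-52995284), the alpha class enzyme that detoxifies 4-hydroxynonenal, ran from 5.57 in MDAMB453 over 8.96 to 11.07 in OCUBF, in a continuous order with no step larger than its SD within sets (1.57). GSTK1 (chr7:143263441-143269115) had a median of 11.72 and a maximum of 12.56 in MT3. It lay within 1 log2 unit of its median in 49 of 50 units. The exception was HCC1806 at 9.59, with the next unit, HCC1143, at 10.82. Thus MGST3 and GSTK1 were at background in 0 units, and all 50 units kept at least these transcripts.

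Whether other members were higher where GSTP1 was missing was read as each member's distance from its own median in the 11 units concerned. MGST1 was near its median in all 11, between -0.09 and 0.58, and above it in 9. MGST2 lay between -1.03 and 1.06, was above its median in 9 of 11 and was at least 1 log2 unit above its median in HCC1937, OCUBF and MDAMB175VII. MGST3 lay between -0.72 and 0.38 and was above its median in 5, and GSTK1 lay between -0.60 and 0.82 and was above it in 9. These 4 transcripts stayed within about 1 log2 unit of their medians, and MGST1, MGST2 and GSTK1 were more often above than below. GSTM3 went both ways: it was at least 1 above its median in 4 units, T47D and EVSAT among them (13.48 and 13.49), and at least 1 below it in BT20, UACC893 and the VP229 and VP267 pair. GSTA4 was likewise at least 1 above its median in OCUBF, OCUBM and UACC893 and at least 1 below it in BT20, T47D and MDAMB361. GSTM4 was at least 1 below its median in 7 of the 11 and above it by at least 1 in 0, and these 7 units had GSTP1 and GSTM4 at background together.

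Counted over all pairs of a unit and another member, 46 of 77 (59.7%) were above the member's own median by any amount, against 51.4% of the pairs with all detected genes in the same units. At least 1 log2 unit above were 10 (12.99%), against 11.2% over all detected genes. At least 1 below were 14 of 77 pairs (18.2%), against 8.56% over all detected genes, and 7 of the 14 were GSTM4. In the 3 units with MGST1 at background, 12 of 21 pairs (57.1%) were above the median by any amount, against 50.3% of the pairs with all genes. In these units 8 of 21 pairs (38.1%) were at least 1 away from the median in either direction, against 22.6% of the pairs with all genes, and 6 of 21 (28.6%) were at least 1 below it, against 10.5%. The only pairs at least 1 above were MGST2 in DU4475, 2.71 above its median, and GSTA4 in MFM223, 1.30 above. MGST2 and MGST3 were above their medians in 3 of 3 units, MGST2 by 0.59 to 2.71 and MGST3 by 0.26 to 0.79. In the units without GSTP1, the share of members at least 1 log2 unit above their medians was thus close to that of all genes, and none of these shares has a test. The members vary more than most genes: 6 of 8 had an SD of at least 1, against 34.2% of detected genes. They were chosen with their wide or on-and-off levels known, so this excess follows from the choice. More of their pairs can thus lie past 1 log2 unit in either direction in any units, so the shares of all genes are not a matched comparison.

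**Figure D3:**
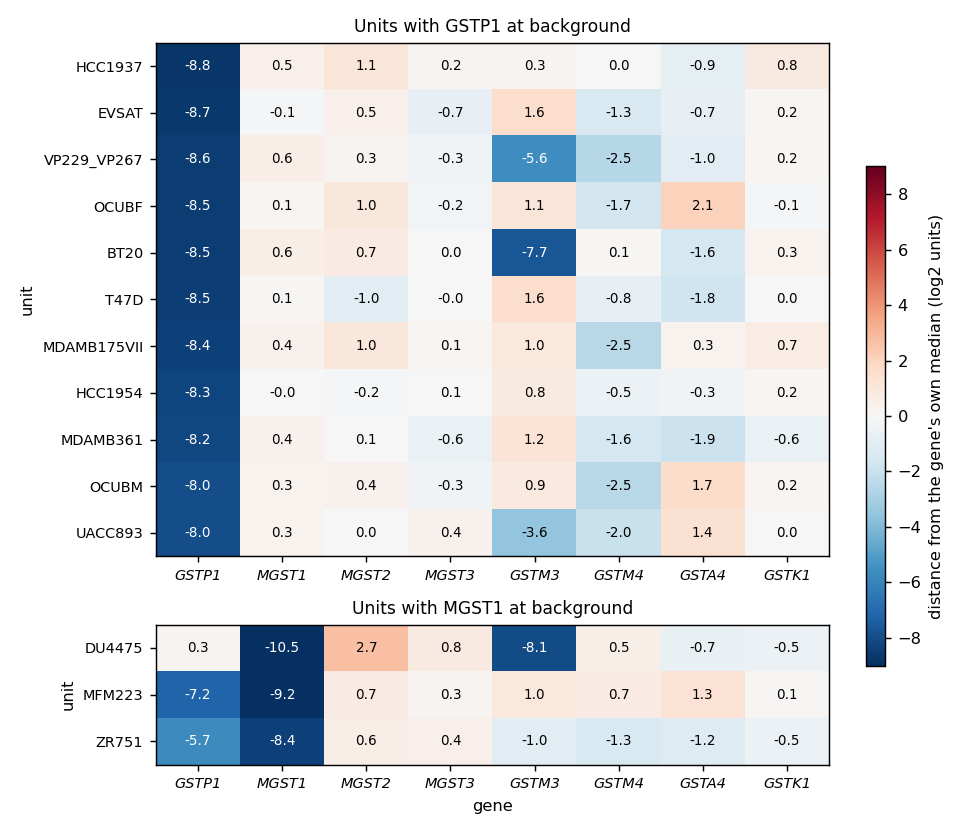
Distance of each member from its own median (log2 units, colour and printed value; red above, blue below) in the 11 units with GSTP1 at background (upper panel) and the 3 with MGST1 at background (lower panel). MGST1 stays between -0.09 and 0.58 in the upper panel, GSTM4 is at least 1 below its median in 7 of 11 units, and MGST2 is above its median in 3 of 3 units of the lower panel.

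The same question was then put to all 50 units with a linear model of each detected gene on the GSTP1 level (limma, Benjamini-Hochberg adjustment over 14647 genes). Of the 7 other members, 1 was called at an adjusted p under 0.05, GSTM4, against 20.9% of all genes (8.60% with a positive and 12.3% with a negative slope), which is close to the share among all genes. GSTM4 was higher where GSTP1 was higher, by 0.1235 log2 units per log2 unit of GSTP1 (SE 0.046, 95% interval 0.0312 to 0.216, limma adjusted p = 0.0477). Over 8 log2 units of GSTP1 this comes to 0.99. The call was marginal: over 16 fits that differed in 1 setting each, this one included, the slope stayed between 0.112 and 0.35, but the limma adjusted p ran from 0.0312 to 0.57 and was under 0.05 in 7.

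No other member was called on GSTP1. The MGST2 slope was -0.135 (95% interval -0.264 to -0.0057, limma adjusted p = 0.128). The MGST1 slope was 0.0069 (95% interval -0.174 to 0.188, adjusted p = 0.968 by limma), and that of GSTM3 was -0.0807 (95% interval -0.284 to 0.122, adjusted p = 0.606). The intervals for MGST3 (-0.0095 to 0.0464), GSTA4 (-0.0663 to 0.122) and GSTK1 (-0.0696 to 0.0122) also held 0. A negative slope means a member that is higher where GSTP1 is lower, and the lowest value that any of the 7 intervals allowed was the -0.284 of GSTM3. Not all signs were stable: over 16 other settings the MGST1 slope had the opposite sign in 8, GSTA4 in 3, MGST2 in 2 and GSTM3 in 1, and none of these slopes was called. The MGST2 slope was 0.0061 with an epithelial score in the model and 0.0313 with a mesenchymal score (limma adjusted p = 0.973 and 0.89).

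The same model on the MGST1 level called 96 of 14647 genes (0.655%), 39 with a positive and 57 with a negative slope (0.266% and 0.389%). Of the 7 other members it called 0 with limma, and 1 had an unadjusted p under 0.05. That one was MGST3, with a slope of -0.0487 (95% interval -0.0912 to -0.0063, limma adjusted p = 0.388). It was -0.029 without DU4475 (adjusted p = 0.965) and 0.1525 without the 4 lowest units (adjusted p = 0.576). The MGST2 slope was -0.141 (95% interval -0.349 to 0.0666, adjusted p = 0.725) and that of GSTP1 was 0.017 (95% interval -0.428 to 0.462, adjusted p = 0.989). None of the members was called in any of the 21 fits tried, this one included, or with ranks. The fit turns on very few units: without DU4475 4 genes were called, without ZR751 194, and without the 4 lowest units 4.

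**Figure D4:**
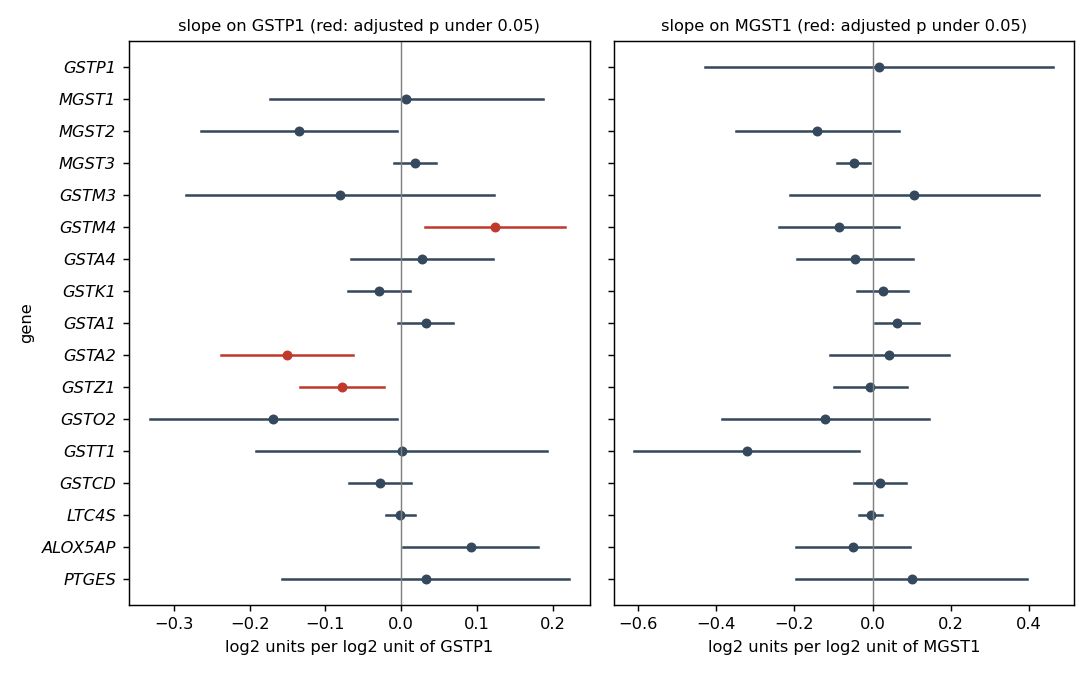
Slope of each glutathione transferase or related gene (rows) on the GSTP1 level (left) and on the MGST1 level (right), in log2 units per log2 unit, from a linear model over 50 units; points are estimates, lines are 95% intervals, and red marks a limma adjusted p under 0.05. GSTM4 is called with a positive slope on GSTP1, GSTA2 and GSTZ1 with negative ones, and 0 genes shown are called on MGST1, beside 0.655% of all genes. GSTA2 passed the detection filter only through units with GSTP1 at background.

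Among 18 further transferase and MAPEG genes, 9 were detected and tested. On GSTP1, 0 were called with a positive slope and 2 with a negative one, beside 20.9% of all genes called in either direction and 12.3% with a negative slope. GSTA2, an alpha class enzyme of liver, had a slope of -0.15 (limma adjusted p = 0.0103), but it was at background in 46 of 50 units and peaked at 8.36 in UACC893. Its other units above background were HCC1954 (7.56), MDAMB175VII (6.06) and MDAMB361 (5.955), and all of these and UACC893 had GSTP1 at background. GSTA2 thus passed the detection filter only through units without GSTP1, so its call is no support for a higher level where GSTP1 is low. GSTZ1, the zeta class enzyme of tyrosine breakdown, was detected in every unit (8.43 to 11.66) and had a slope of -0.0777 (95% interval -0.133 to -0.0224, limma adjusted p = 0.0373). GSTT1, a theta class enzyme, was itself at background in 19 units and ran up to 11.59 in MDAMB453, with a slope of 0.0007 (95% interval -0.191 to 0.193, adjusted p = 0.997). GSTO2, the second omega class gene, ran from 4.10 in HS578T to 11.83 in MDAMB175VII and had a slope of -0.169 (95% interval -0.332 to -0.0056, adjusted p = 0.132). PTGES, which makes prostaglandin E2, ran from 3.92 to 13.53 with a slope of 0.0321 (adjusted p = 0.842). On MGST1, 0 of the 9 were called by limma, beside 0.655% of all genes, with GSTT1 at -0.322 (adjusted p = 0.406). GSTM5, GSTA3, GSTA5 and HPGDS were not detected by the filter used. GSTM1, GSTM2, GSTT2, GSTT2B and GSTT4 had no probe set annotated to them alone. They were not measured here, so whether they were higher where GSTP1 or MGST1 was low is not known.

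Genes that supply or use glutathione moved with GSTP1 in both directions. Of 20 tested, 3 were called with a positive and 4 with a negative slope. GPX7, a peroxidase of the endoplasmic reticulum, had a slope of 0.376 (limma adjusted p = 0.00188), whereas GSR, which regenerates reduced glutathione, had -0.0666 (adjusted p = 0.00888) and GGCT, an enzyme of the glutamyl cycle, -0.0974 (adjusted p = 0.00123). Of 6 tested transporters of glutathione conjugates and related export pumps, ABCC4 had 0.271 (limma adjusted p = 0.00765) and ABCC5 -0.0884 (adjusted p = 0.014), and these were the only 2 called. These shares, 7 of 20 and 2 of 6, were not tested against the 20.9% of all genes.

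NRF2, encoded by NFE2L2 and restrained by KEAP1, is the factor that drives many glutathione genes. Of 25 NRF2 target genes tested, 2 were called with a positive and 3 with a negative slope on GSTP1, which is 20% of them and no more than the share of all genes. AKR1C1, an aldo-keto reductase, had a slope of 0.344 (limma adjusted p = 0.0205), while the quinone reductase NQO1 had -0.0545 (adjusted p = 0.0179) and OSGIN1 -0.111 (adjusted p = 0.0132). KEAP1 itself had 0.0624 (adjusted p = 0.00215) and NFE2L2 0.0328 (adjusted p = 0.0931). On MGST1, 0 of the 25 targets were called, beside 0.655% of all genes, so this count says little about the targets.

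The GSTP1 level moved with markers of cell identity. Of 11 luminal markers tested, 9 were called and all 9 had negative slopes, with a median of -0.39 over the list against -0.0041 over all genes. FOXA1, the pioneer factor of the luminal lineage, had -0.611 (95% interval -0.8 to -0.422, limma adjusted p = 1.08e-05), XBP1 -0.179 (adjusted p = 4.06e-06) and the oestrogen receptor gene ESR1 -0.42 (adjusted p = 0.00184). All 10 epithelial markers had called negative slopes (median -0.38), and 11 of 12 mesenchymal markers had called positive ones (median 0.48), among them VIM at 0.617 (adjusted p = 4.66e-05), MSN at 0.602 (adjusted p = 2.89e-05) and ZEB1 at 0.544 (adjusted p = 0.000368). Of 8 basal markers, 1 was called, DSC3 at 0.343 (adjusted p = 0.0118), and of 9 stromal fibroblast markers 4 were called, all with positive slopes. Of 5 melanocyte, 6 intestinal and 3 blood cell markers, 1, 1 and 0 were called. Over all genes 20.9% were called, 8.60% with a positive and 12.3% with a negative slope. The basal, melanocyte, intestinal and blood cell counts were below that 20.9%, and no list was tested against it.

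All 11 units with GSTP1 at background had FOXA1 and CDH1 far above background. FOXA1 lay between 11.77 and 13.40 in them, against 3.46 to 13.54 in the other 39 units, and CDH1 between 12.42 and 13.31, against 3.93 to 13.33. Single lines could differ from this. AU565, whose average with SKBR3 is not among the 11, had GSTP1 at background (4.88) with FOXA1 at 12.68 but CDH1 at only 3.70. ESR1 was at background in 2 of the 11, EVSAT and OCUBF, so GSTP1 was missing with and without ESR1. KRT5, a basal keratin, reached 12.42 in BT20, 12.39 in HCC1937 and 12.04 in HCC1954, so GSTP1 was also missing in lines with a high basal keratin. The luminal marker GATA3 was less uniform than FOXA1. It lay between 3.60 and 12.75 in the 11 units and was at background in EVSAT. VIM lay between 2.63 and 11.65 in the 11 units, highest in HCC1954, against 2.75 to 13.57 in the other 39. The summed level of the 10 epithelial markers was 111 to 115 in the 11 units and 44.2 to 118 in the other 39, and that of the 12 mesenchymal markers 50.2 to 99.3 and 56 to 150. The luminal sum was 95.3 to 132 in the 11 units and 65.7 to 132 in the 39, and the stromal sum 35.3 to 47.9 and 33.8 to 116. The converse did not hold for each line: ZR7530 (ESR1 11.86, FOXA1 13.28) had GSTP1 at 12.81 and CAMA1 (ESR1 12.24, FOXA1 13.46) had it at 11.77. Nor did it hold in units with lower ESR1. CAL148 (FOXA1 13.35) had GSTP1 at 12.56 and MDAMB468 (FOXA1 12.14) at 12.43. HCC70 (FOXA1 11.82) had it at 13.57 and MT3 (FOXA1 11.81) at 13.67. High FOXA1 was thus found with and without GSTP1.

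The number of genes called on GSTP1 was smaller once identity entered the fit. With an epithelial score as a further term the number of genes called on GSTP1 fell to 447, with the ESR1 level to 1221, and with a mesenchymal or a luminal score, both terms chosen after seeing the data, to 141 and 0, against 3066 without such a term. With the luminal score, 1137 genes (7.76%) had an unadjusted p under 0.05. With the cluster of GSTP1 as a factor beside its level, 0 genes were called (0%), and 804 (5.49%) had an unadjusted p under 0.05. The cluster is not a measure of identity. It is cut from the GSTP1 level itself, so this fit removes the difference between low and high units. Its slopes were also less precise, with an SE of 0.0983 for GSTM4 against 0.046. The 0 calls can therefore not be read as a result about the slopes across all units. GSTM4 was not called in any of these 5 fits, but its slope was not smaller than 0.112 in them: it was 0.1124 with ESR1, 0.134 with the epithelial, 0.137 with the mesenchymal and 0.149 with the luminal score, and 0.35 with the cluster. The part of cell identity in each single slope given above was otherwise not tested.

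Among all detected genes, the 5 with the highest rank correlation with GSTP1 over the 50 units were FSCN1, an actin-bundling protein (Spearman rho 0.711), CCDC88A (0.671), FHL3 (0.658), DYNC1I1 (0.654) and ARAP3 (0.649). The 5 at the opposite end were MED29, a Mediator subunit (-0.734), SPINK8 (-0.718), BATF (-0.716), BCAS1 (-0.712) and SPDEF, an ETS factor of secretory epithelium (-0.707). The correlation of any other member was weaker than these, from -0.393 for GSTM3 to 0.307 for GSTM4. For MGST1 the 5 highest were C16orf74 (0.575), DTX4 (0.557), CAPN1 (0.551), CMAS (0.543) and DERA (0.542), and the 5 lowest were PRDX4 (-0.623), GEMIN8 (-0.543), NEK10 (-0.536), GPAT4 (-0.533) and MBTPS2 (-0.531). PRDX4 is a peroxiredoxin of the endoplasmic reticulum, and DERA is the nearest detected neighbour of MGST1 on the side of lower coordinates. These correlations describe 50 units that share a normalization and fall into lineages, and for MGST1 they order mostly units within 1 log2 unit of each other.

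Chromosomal neighbours were examined to see whether either level moved with those of the genes around it. Of the 5 detected genes on each side of GSTP1, 3 of 10 were called on its level, against 20.9% of all genes, and all 3 had negative slopes, against 12.3%: ALDH3B2, an aldehyde dehydrogenase (-0.655, limma adjusted p = 3.33e-06), TMEM134 (-0.136, adjusted p = 0.000528) and PTPRCAP (-0.0608, adjusted p = 0.0121). The nearest neighbours CABP2 and NDUFV1 had -0.033 (adjusted p = 0.378) and -0.0397 (adjusted p = 0.101). No neighbour of GSTP1 was thus called as lower where GSTP1 was lower. Of the 10 neighbours of MGST1, 0 were called by limma, beside 0.655% of all genes. The 2 nearest were DERA (0.0551, limma adjusted p = 0.644) and LMO3 (0.0269, adjusted p = 0.972). EPS8 had the smallest adjusted p (slope 0.164, limma adjusted p = 0.0599).

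Lines of common origin showed how far a member can differ between cultures that descend from the same patient or parent. GSTP1 was at 4.88 in AU565 and 10.55 in SKBR3, while all other members differed by 0.62 or less between these lines. MGST1 was at 2.41 in MDAMB157 and 12.43 in MB157, which otherwise differed by 0.62 or less over the members. A range of at least 4 log2 units, a size chosen after seeing these values, was found for 1 of 8 members in each of these pairs, and for 0.457% and 2.95% of detected genes. MB157 and MDAMB157 also differed in identity markers, with CDH1 at 12.77 in MB157 and 6.23 in MDAMB157, and KRT5 at 12.13 and 7.56.

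VP267 had GSTA4 at 5.48 and GSTM3 at 4.32, against 10.48 and 8.25 in VP229, while GSTP1 was at background in both. In the VP229 and VP267 pair 1.52% of detected genes had such a range. EFM192B, EFM192C and EFM192A had GSTP1 at 4.99, 5.65 and 7.08 and MGST1 at 12.23, 10.01 and 11.38. In the MDAMB435 set GSTA4 was at 4.61 in M4A4, 7.47 in NM2C5 and 7.97 in MDAMB435S, with GSTP1 between 13.40 and 13.52 in all 3. In the EFM192, MDAMB435 and HMT3522 sets 0 of 8 members had a range of at least 4, against 2.10%, 1.94% and 0.649% of detected genes. The HMT3522 lines differed most in GSTM3, at 9.15 in HMT3522S1 and 10.66 in HMT3522T42. With 1 array per line, a change in culture cannot be told apart from a difference between arrays or a mislabelled culture.

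**Figure D5:**
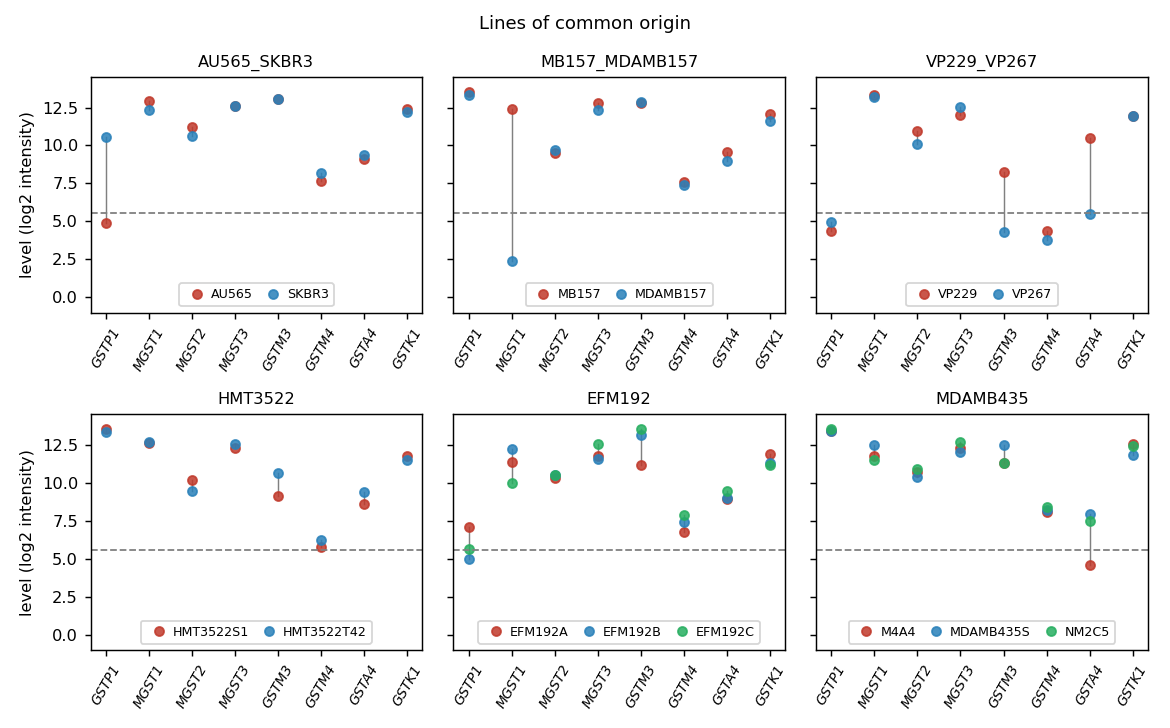
Level of the 8 members (vertical axis, log2 intensity) in each line of the 6 sets of common origin (panels); each colour is 1 line, grey bars join the lowest and highest line and the dashed line is the background level. GSTP1 separates AU565 (4.88) from SKBR3 (10.55), MGST1 separates MDAMB157 (2.41) from MB157 (12.43), and GSTA4 and GSTM3 separate VP267 from VP229.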

How the data were processed

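Per the labels, untreated lines were grown as their suppliers advise, and RNA was amplified and hybridised to 1 array per line. The authors deposited log2 intensities made with RMA in Affymetrix Power Tools, per the submitters' processing notes, and versions are not given in the sources used here. RMA ties all arrays to 1 intensity distribution and compresses low signals, so levels near background have no reliable order. Of 52377 probe sets, 35184 named 1 gene in GEO's platform annotation, 374 named several and 16819 none. Only those with 1 gene were used. Positions came from a GRCh38.p14 gene table, which 14628 of 14648 detected genes matched. The build of the probe annotation is not given in the sources used here.

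A gene was detected when above the array median in at least 3 of 50 units. Slopes were fitted with limma 3.58.1 (trend, robust) in R 4.3.3, after a test on simulated data, and adjusted by the Benjamini-Hochberg method. Clusters came from mclust 6.1.1: 2 clusters needed a BIC gain over 10, an Ashman D over 2 and at least 3 units each. P-values measure the spread between units, each mostly 1 array. The arrays' number limits the precision.

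Genes named are all members, further detected transferases, the 5 most and least correlated genes, 5 neighbours on each side, ESR1, KEAP1, NFE2L2 and the 3 genes with the smallest adjusted p in each list. Other genes were named after their values were seen, only as identity markers or list members. Members, lists and rules were chosen with earlier results of these data known. Alternatives changed the probe set, normalization, filter, units, threshold and covariates.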

Additional observations from a re-analysis of the deposited data

How the results depend on the processing

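The counts of units with GSTP1, MGST1, MGST2, MGST3, GSTM4 and GSTK1 at background stayed within 1.5 times under every alternative tried. GSTM3 was at background in 10 units with the mean of its probe sets, and GSTA4 in 0 after a second quantile normalization or with the array median as threshold, and in 3 over all 58 lines or at the higher background level. MGST2 gave 1 cluster over all 58 lines, without the MDAMB435 set and MT3, or without the 4 Hs lines, and GSTM3 gave 1 with the mean of its probe sets. Genes called on GSTP1 numbered 0 with its cluster as a factor, 1221 with ESR1, 447 with the epithelial score and 1773 with ranks. They numbered 0 with the luminal and 141 with the mesenchymal score, which were added after seeing the data. Genes called on MGST1 numbered 259 with no filter, 51 with the filter at 10 units, 9 without the 3 widest units, 23 with the split of a mixture model as a factor (a split into 9 and 41 units that the cluster rule rejected), 43 with array quality as a term and 2 with ranks. In fits added after seeing the data they numbered 4 without DU4475, 194 without ZR751 and 4 without the 4 lowest units. The causes were not tested. The cluster of GSTP1 is cut from its own level, so the fit with it as a factor removes the difference between low and high units. Neither its 0 calls nor the signs of its slopes can be set against the fit across all units.

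Of the genes named as called on GSTP1, those whose slope changed sign with the cluster as a factor, where none was called, were FSCN1 (-0.0141), CCDC88A (-0.0497), SPINK8 (0.0628), SPDEF (0.0843), TMEM134 (0.0295), ALDH3B2 (0.0542), GGCT (0.0182), GSR (0.0465), AKR1C1 (-0.219), FOXA1 (0.0642), RAB25 (0.088), GRHL2 (0.0477), CLDN4 (0.0543), ZEB1 (-0.0492), POSTN (-0.0317) and CEACAM5 (0.193). With the epithelial score these were POSTN (-0.0277) and PDGFRB (-0.0057). With the luminal score they were AKR1C1 (-0.0223), POSTN (-0.0621) and CEACAM5 (0.0578), and with the mesenchymal score AKR1C1 (-0.001), POSTN (-0.08) and PDGFRB (-0.0129). Among the members, which none of these fits called with the other sign, MGST1 (-0.0664) and GSTM3 (0.0637) changed sign on GSTP1 with the cluster, GSTA4 (-0.0364) with ESR1, and MGST1 (-0.0067), MGST2 (0.0061) and GSTA4 (-0.0166) with the epithelial score. MGST1 (-0.0271) and GSTA4 (-0.0213) did so with the luminal score, and MGST1 (-0.0974) and MGST2 (0.0313) with the mesenchymal score. Over 21 other settings of the fit on MGST1, the sign changed in 10 for GSTP1, 4 for GSTM3, 2 each for MGST2 and GSTA4 and 1 each for GSTM4 and MGST3. Leaving out probe sets marked for cross-hybridisation was not run, because 0 single-gene probe sets carry such a mark. No paired analysis was possible because the labels give 1 sample per line and no groups. A single array per line leaves no measure of technical error beyond the sets of common origin.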
